A study of Mus musculus with 10 samples.

Results

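The kinesin motor genes of the mouse dentate gyrus were taken as the protein-coding genes whose symbol starts with Kif and a digit, together with Kifc1, Kifc2 and Kifc3, if their normalised read count averaged at least 10 over the 10 libraries. Of 42 such symbols, 39 passed and are called the members here, among 17007 genes that passed the same minimum. They comprised 17 motors of intracellular transport, 12 motors of cell division and 9 motors of microtubule ends, cilia or signalling. The remaining member, Kif1bp, carries a kinesin symbol but encodes a protein that binds kinesins and is no motor itself. Kif28 (mean 8.89), Kif12 (0.238) and Kif2b (0 in every library) stayed below the minimum, while Kif18b (14.2) and Kif14 (14.9) were the members closest above it.

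Dentate gyri were dissected from C57Bl/6 mice at an age of 8 weeks. An adeno-associated virus of serotype 9 (AAV9, a vector that transduces neurons well) had been injected into the dentate gyrus of both hemispheres. In 5 mice the virus encoded GFP, an inert fluorescent protein, and in the other 5 it encoded Sox11, a transcription factor of immature neurons. The labels give no promoter for either vector and no time between injection and dissection. No group went without virus, so every difference below is Sox11 virus against GFP virus in whole microdissected tissue. In such bulk tissue, fewer cells of a type and less RNA per cell cannot be told apart.

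Kinesins are molecular motors that use ATP to walk along microtubules, and most of them move towards the growing, plus end. In neurons they carry vesicles, organelles and RNA granules from the cell body into axons and dendrites, while the kinesin-14 motors walk the opposite way. A second set of kinesins builds and divides the mitotic spindle, and several of its members are made mainly by cycling cells. In the dentate gyrus both settings occur, since neural precursors divide next to mature granule neurons.

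The libraries are called by group and by their number in the table (GFP 1, 3, 4, 5 and 6; Sox11 1, 2, 3, 6 and 7), and values are always given in that order. They held between 45100154 and 68769808 reads assigned to genes. Sox11 itself ranged from 1364 to 1634 normalised counts in the GFP libraries and from 9803 to 20434 in the Sox11 libraries, a log2 fold change of 3.08 (SE 0.18, two-sided exact permutation p = 0.00794, the smallest that 5 against 5 libraries allow). Reads from the virus and from the mouse's own Sox11 gene cannot be told apart in this count. Dentate granule neuron markers were abundant in every library (Prox1 13354 to 22834, Calb1 10926 to 20363), and 3 of 7 were lower in the Sox11 group, none higher. Of 8 markers of immature neurons 5 were higher, with Dcx at a log2 difference of 1.77 and Sox4 at -0.17. Over all genes 9.65% were higher and 9.36% lower. For the lists that follow, the genes in brackets are the first of each list, whether they passed or not. The microglial marker that passed was C1qb (0.33), the interneuron marker Gad2 and the pyramidal marker Nptx1 (-0.58). By limma, the number past the threshold was 3 of 6 for astrocytes (all higher; Aqp4 0.04, Gfap 0.46), 1 of 6 for microglia (higher; Cx3cr1 0.04, Tmem119 0.00), 1 of 6 for interneurons (lower; Gad1 -0.20, Gad2 -0.30) and 1 of 7 for pyramidal neurons (lower; Wfs1 -0.04, Fibcd1 -0.10). It was 0 of 7 for oligodendrocytes (Mbp -0.19), 0 of 5 for endothelium (Cldn5 0.08, Pecam1 -0.05), 0 of 9 for choroid plexus (Ttr -2.12, Kl -1.71) and 0 of 10 for motile cilia (Foxj1 0.27, Ccdc153 -0.08). In these 4 lists 0, 0, 2 and 1 markers had an unadjusted p below 0.05, edgeR called 3 choroid plexus markers lower, and edgeR and DESeq2 called no other marker of them. One library stood apart. GFP 3 held 345861 normalised counts of Ttr, the main secreted protein of the choroid plexus, against 34.9 to 1312 in the others. The log2 differences of all 9 choroid plexus markers were negative, and GFP 3 was the highest library for each of them. For 2 of the 9 (22.2%) the groups did not overlap, beside 15.9% of all genes. Kl ranged from 1448 to 13733 with GFP and from 603 to 938 with Sox11, and Prlr from 104 to 5788 and from 34.9 to 79.4.

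Transport and mitotic motors were expressed at levels that did not overlap. In normalised counts per kilobase of exon, the 17 transport motors ranged from 72.2 (Kif13b) to 14758 (Kif5a) in the GFP group, and the 12 mitotic motors from 1.54 (Kif14) to 15.5 (Kif11). Kif5a, a neuronal heavy chain of kinesin-1, led with 14758 ± 1961 (SD, n = 5) under GFP and 16350.2 ± 803 under Sox11. It was followed by its paralogue Kif5c (8899.9 ± 825 and 9440.0 ± 744), the minus-end motor Kifc2 (7099.9 ± 658 and 5697 ± 224) and Kif1a, the carrier of synaptic vesicle precursors (6553 ± 644 and 6509.7 ± 415). Under GFP, Kif5c overlapped Kifc2 and Kifc2 overlapped Kif1a, so the order of these neighbours was within their spread, and under Sox11 Kif1a lay above Kifc2. Transport motors made up 97.3% ± 0.14 (SD, n = 5) of the summed per-length level of the 38 motors in GFP libraries and 97.2% ± 0.14 in Sox11 libraries, and mitotic motors 0.176% ± 0.019 and 0.181% ± 0.015. The balance between the classes thus did not differ beyond the spread of the libraries.

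**Figure D1:**
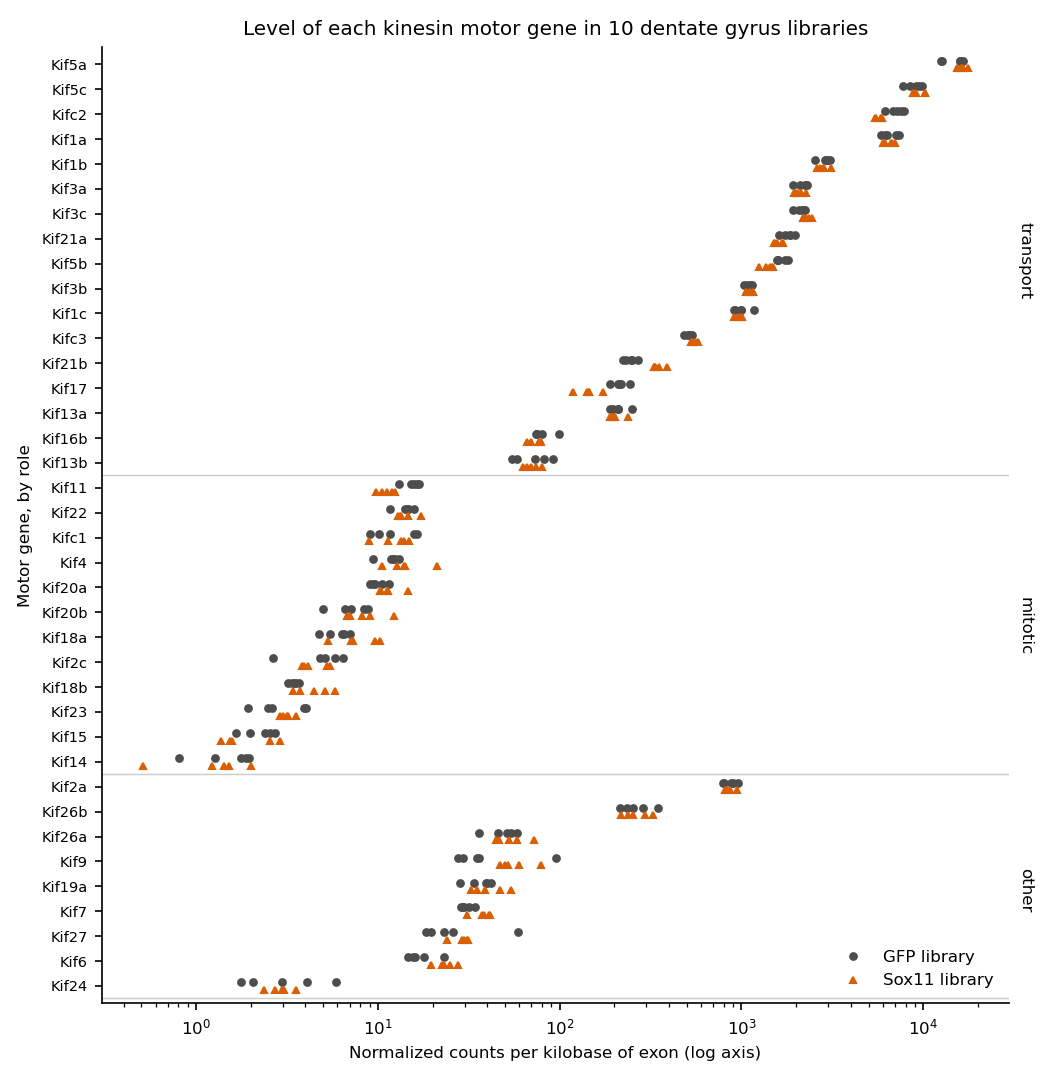
Each point is a library and each row a motor gene, ordered by role and by its GFP mean; the horizontal axis is normalised counts per kilobase of exon on a log scale. All transport motors lie above all mitotic motors, from Kif5a at 14758 in the GFP mean down to Kif14 at 1.54.

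The comparison of the groups asks which motors differ with Sox11. Of the 39 members, 7 passed the threshold (limma, Benjamini-Hochberg adjusted p below 0.05 over all 17007 genes), which is 17.9% against 19.0% of all genes tested. Kif21b and Kif6 were higher in the Sox11 group, 2 of 39 or 5.13% beside 9.65% of all genes. Kif17, Kif1bp, Kifc2, Kif11 and Kif5b were lower, 5 of 39 or 12.8% beside 9.36%. The share called among kinesins was therefore near that of the whole table, and the median log2 fold change of the members was 0.00 beside -0.01 over all genes. The groups did not overlap for 6 members (15.4%), beside 15.9% of all genes.

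The transport and mitotic motors differed in how many passed, and also in how precisely they were measured. Among the transport motors 1 rose and 3 fell of 17, with a median log2 fold change of -0.03. Among the mitotic motors 0 rose and 1 fell of 12, with a median of 0.07; edgeR and DESeq2 gave the same counts, and 1 of the 12 had an unadjusted p below 0.05. The median SE of the log2 fold change was 0.07 for transport and 0.21 for mitotic motors, whose mean counts ran from 14.2 to 99.4. Split by level instead of role, 5 of the 20 members with a mean of at least 500 passed (25.0%, beside 24.8% of all such genes), and 2 of the 19 lower ones did (10.5%, beside 10.4%). No test of transport against mitotic motors was made, and these counts do not show that the classes responded differently.

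**Figure D2:**
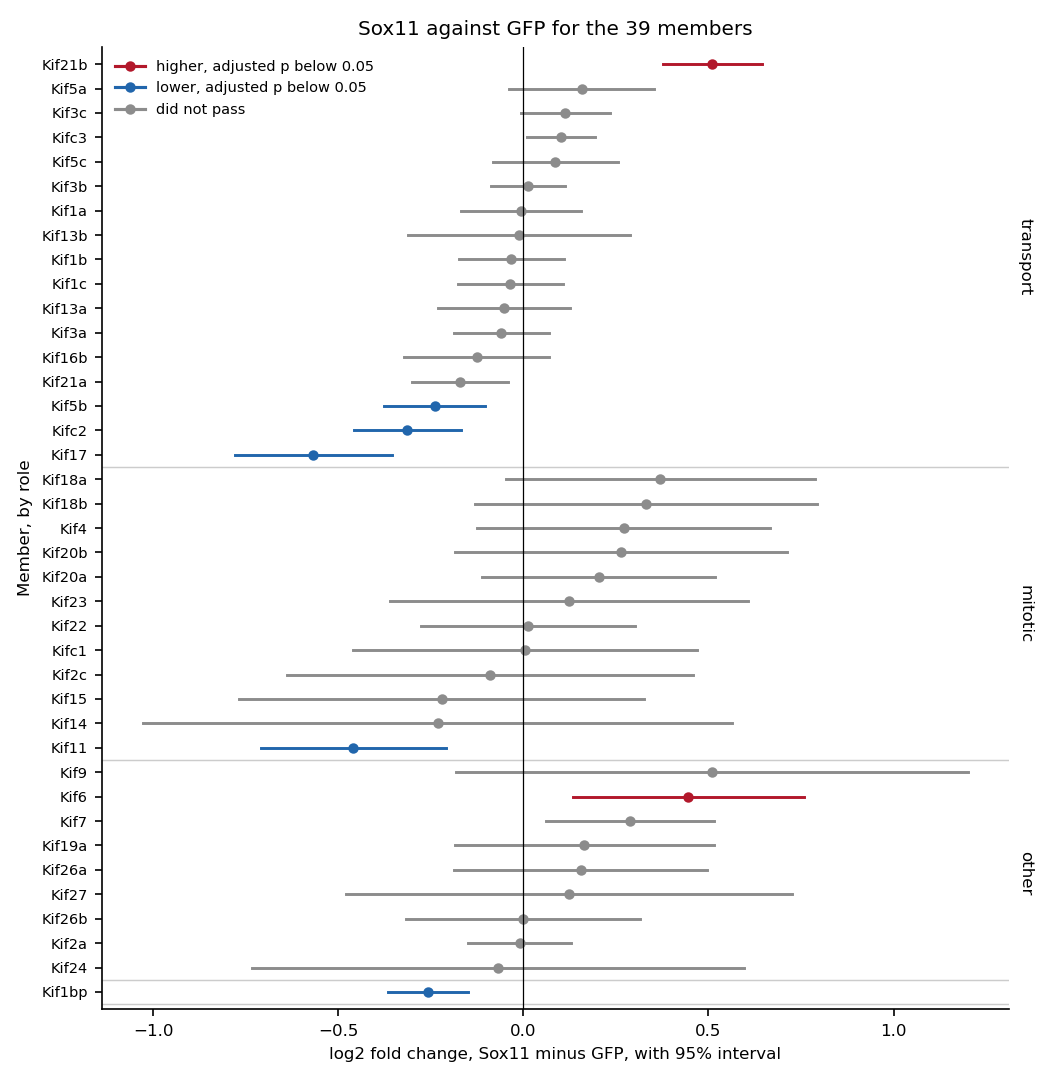
Log2 fold change of each of the 39 members, Sox11 minus GFP, with its 95% interval from limma; rows are grouped by role and colours mark the members past the threshold. The transport motors cluster near 0 with short intervals apart from Kif21b (0.51), Kif17 (-0.57), Kifc2 (-0.31) and Kif5b (-0.24), while most mitotic motors have wide intervals that cross 0.

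Kif21b was the member with the lowest p. It encodes a kinesin-4 motor of dendrites and axons that also slows and pauses the growth of microtubule ends. Its normalised counts were 3028, 2836, 3011, 2733 and 3281 in the GFP libraries and 4266, 4072, 4752, 4032 and 4091 in the Sox11 libraries. Every Sox11 library was above every GFP library. The log2 fold change of 0.51 (SE 0.06, limma adjusted p = 0.000303) was a 1.42-fold rise. Its paralogue Kif21a, which carries a similar motor and regulates microtubules in axons, was more abundant per kilobase (1799 against 244 in GFP libraries) and did not pass. Its log2 fold change was -0.17 (SE 0.06, adjusted p = 0.0674), and it passed with GFP 3 left out (-0.21, adjusted p = 0.0186) and with DESeq2 (adjusted p = 0.0209).

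Kif17 fell furthest among the members. It is a kinesin-2 motor that forms homodimers and carries NMDA receptor subunits into dendrites, and it also works in cilia. Its counts were 959, 863, 994, 969 and 1113 in the GFP libraries and 797, 666, 544, 661 and 649 in the Sox11 libraries. The groups did not overlap, although Sox11 1 came close to the lowest GFP library. Kif17 thus fell by 0.57 on the log2 scale (SE 0.10, limma adjusted p = 0.00229), to 0.675 of the GFP level. The stretch just upstream of its start site is printed below because Kif17 is the member that fell furthest and because its window holds a cyclic AMP response element, a word bound by CREB-family factors. The letters are from RefSeq (GRCm38.p6, chr4:138262001-138262250, plus strand), ending at the base before the start site, with the element in capitals.
Kif17 promoter: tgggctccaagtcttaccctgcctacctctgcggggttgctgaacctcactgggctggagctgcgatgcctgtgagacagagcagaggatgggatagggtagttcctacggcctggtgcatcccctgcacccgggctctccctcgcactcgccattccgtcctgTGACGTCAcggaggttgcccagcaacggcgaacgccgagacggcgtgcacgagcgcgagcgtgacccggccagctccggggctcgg
The word TGACGTCA, which reads the same on both strands, begins 86 bases before the start. This start is the RefSeq one and lies inside the GENCODE gene, which begins at base 138250435. In windows of 300 bases (250 before the start and 50 after it) the word was found in 1.79% of all 32851 RefSeq windows. Among members it was in Kif17, Kif5c and Kif18a, of which Kif5c and Kif18a did not pass the test. A match is a description of the letters and says nothing on whether a factor binds there.

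The other kinesin-2 motors did not pass, although quantile normalisation called Kif3c higher (limma adjusted p = 0.0149). Kif3a and Kif3b pair with each other and with the accessory subunit Kifap3 to carry vesicles and to build cilia, and Kif3c is a neuronal partner of Kif3a. Kif3a counts were 7511, 6927, 8119, 8031 and 8241 in the GFP libraries and 7334, 7014, 8067, 7178 and 7635 in the Sox11 libraries. The groups overlapped almost wholly, and the log2 fold change was -0.06 with a 95% interval from -0.19 to 0.07. Kif3b stood at 0.01 (interval -0.09 to 0.11), Kif3c at 0.11 (-0.01 to 0.23) and Kifap3 at -0.11 (SE 0.06, limma adjusted p = 0.218). Of the bases of Kif3c exons, 40.7% are also covered by genes on the opposite strand. The strand setting of the counting is not given in the sources used here, so reads of those genes cannot be told apart from its own.

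Kinesin-1, the main motor of axonal mitochondria and vesicles, is built from heavy chains and light chains. Of the 3 heavy chains only Kif5b, the one made in nearly all cell types, passed. Its counts were 12492, 13899, 14450, 12595 and 12749 in the GFP libraries and 11449, 10924, 9995, 11748 and 11964 in the Sox11 libraries. Every Sox11 library was below every GFP library. Kif5b fell by 0.24 on the log2 scale (SE 0.06, limma adjusted p = 0.0204), and the adjusted p became 0.0510 with GFP 4 left out.

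The neuronal heavy chains did not pass, although quantile normalisation called Kif5a higher (0.27, limma adjusted p = 0.0418) and the column-number covariate called Kif5c higher (0.13, adjusted p = 0.0444). Kif5a counts were 87524, 89080, 111735, 111250 and 116192 in the GFP libraries and 122559, 113929, 115028, 113091 and 106831 in the Sox11 libraries. GFP 1 and GFP 3 were the lowest, and the other GFP libraries lay among the Sox11 libraries. Kif5c counts were 55019, 60651, 70031, 67332 and 64782 against 64739, 62701, 63298, 73051 and 73313, again with overlap. The 95% intervals of the log2 fold change ran from -0.04 to 0.35 for Kif5a and from -0.08 to 0.26 for Kif5c. Within the summed heavy chains per kilobase, the share of Kif5b was 6.61% ± 0.77 (SD, n = 5; 5.85% to 7.58%) with GFP and 5.17% ± 0.30 (4.71% to 5.54%) with Sox11, with no overlap. This share restates the counts above and was not tested.

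The light chains, which link the heavy chains to cargo, moved in both directions. Of the 5 genes of light chains and Kifap3, 1 rose and 1 fell. That is 40.0%, beside 19.0% of all genes and 24.8% of those with a mean of at least 500. A share of 5 genes is too coarse to set these genes apart. Klc4 rose by 0.26 on the log2 scale (SE 0.07, limma adjusted p = 0.0223) from 798 ± 55.0 to 954 ± 72.6 counts (SD, n = 5). Klc2 fell by 0.24 on the log2 scale (SE 0.06, adjusted p = 0.0181), from 10799 ± 656 to 9123 ± 675. Klc1, a neuronal light chain, did not pass (0.09, SE 0.08, adjusted p = 0.517), nor did Klc3 (-0.38, SE 0.22, adjusted p = 0.274).

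Kifc2 and Kifc3 are kinesin-14 motors, which carry cargo towards the minus ends of microtubules. Kifc2, found mainly in neurons and their dendrites, had counts of 26855, 24160, 28078, 29678 and 30815 in the GFP libraries and 22893, 22981, 21465, 23235 and 21420 in the Sox11 libraries. All Sox11 libraries were below all GFP libraries. Kifc2 fell by 0.31 on the log2 scale (SE 0.07, limma adjusted p = 0.00698). Kifc3 stood at 0.10 (SE 0.04, adjusted p = 0.118), and 27.5% of its exonic bases are covered by opposite-strand genes.

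Kif1bp, the kinesin-binding protein, attaches to the motor domains of several kinesins and keeps them off microtubules. Its counts were 11991, 11737, 12997, 13599 and 13036 in the GFP libraries and 10549.7, 10317, 10407, 10610.5 and 11028 in the Sox11 libraries, with no overlap. It fell by 0.26 on the log2 scale (SE 0.05, limma adjusted p = 0.00414). Opposite-strand genes cover 10.1% of its exonic bases.

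The kinesin-3 motors, long-range carriers of vesicle precursors and endosomes, had 0 of 6 members past the threshold in limma, edgeR or DESeq2, and 0 with an unadjusted p below 0.05. With 19.0% of all genes called, so few members say nothing particular about the family. Kif1a counts were 57541, 54563, 58685, 68618 and 66277 in the GFP libraries and 62741, 57251, 61847, 65532 and 56307 in the Sox11 libraries. Every Sox11 value lay inside the GFP range. Its log2 fold change was -0.01 with a 95% interval from -0.17 to 0.16, and its sign changed under several alternatives. Kif1b (-0.03), which carries mitochondria and synaptic vesicle precursors, Kif1c (-0.04), Kif13a (-0.05) and Kif13b (-0.01) lay near 0, and Kif16b, a motor of early endosomes, stood at -0.13. Their intervals all crossed 0, the widest being that of Kif13b (-0.31 to 0.29).

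**Figure D3:**
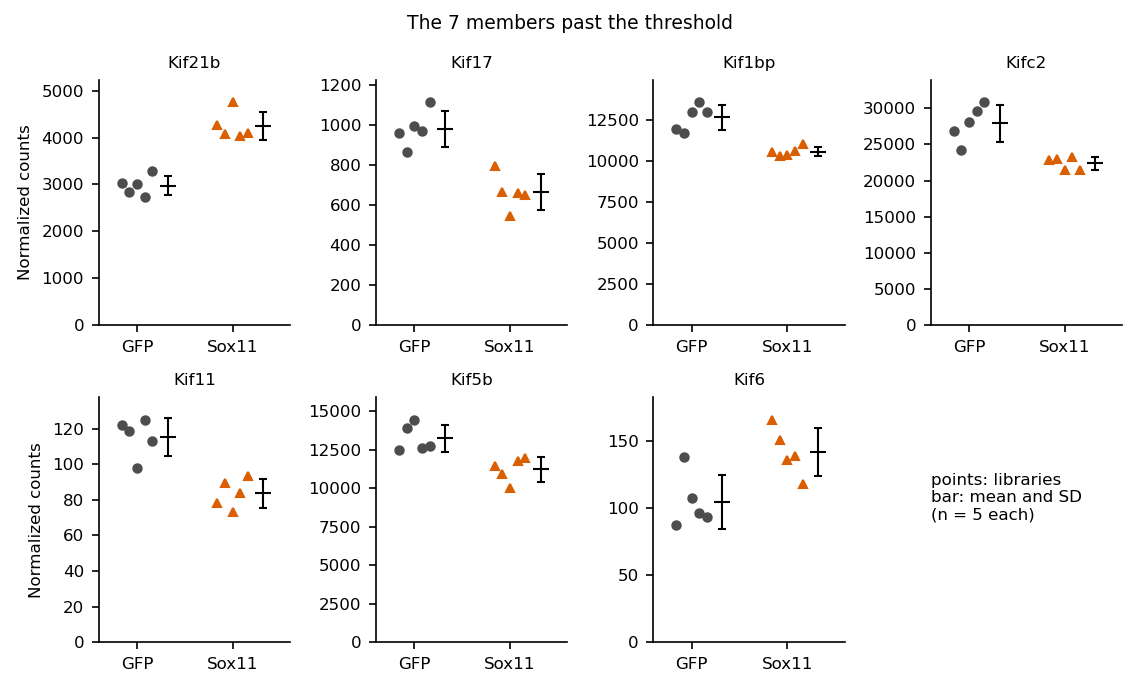
Normalised counts of the 7 members past the threshold, one panel each with an axis from 0; points are libraries and bars the mean and SD (n = 5 per group). The groups are apart in 6 panels, and in the panel of Kif6 the GFP library at 138 lies among the Sox11 libraries.

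The log2 ratio of 2 motors of one subfamily within a library is almost independent of that library's scaling. Ratios were formed for all 15 pairs within the kinesin-1, kinesin-2, Kif1, Kif13, Kif21 and neuronal kinesin-14 subfamilies. The pairs were laid out after the fold changes had been seen and many contain a member that passed, so the ratios are given with no test. In 7 of the 15 pairs the groups did not overlap, and all of these except Kif3a over Kif3c contain a member that passed. For single genes the share without overlap was 15.9%, and no such share was formed for pairs of other genes. The ratio of Kif21b to Kif21a went from -1.97 ± 0.13 (SD, n = 5) with GFP to -1.29 ± 0.14 with Sox11, and that of Kifc3 to Kifc2 from -3.36 ± 0.13 to -2.94 ± 0.07. Kif17 lost ground to each of its kinesin-2 relatives, the ratio of Kif3a to Kif17 going from 2.99 ± 0.06 to 3.50 ± 0.25.

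The pair Kif3a and Kif3c was the tightest. Neither gene passed on its own, yet their log2 ratio was -1.01 ± 0.02 (SD, n = 5; -1.03 to -0.98) with GFP and -1.19 ± 0.02 (-1.21 to -1.16) with Sox11. The gap between the groups was several times the spread inside either. How often pairs of other genes separate this far was not tested. Part of the Kif3c count may be reads of the opposite-strand genes mentioned above, whose part in the ratio was not tested. Pairs of the Kif1 subfamily did not separate: the ratio of Kif1a to Kif1b was 0.27 ± 0.12 and 0.29 ± 0.09.

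**Figure D4:**
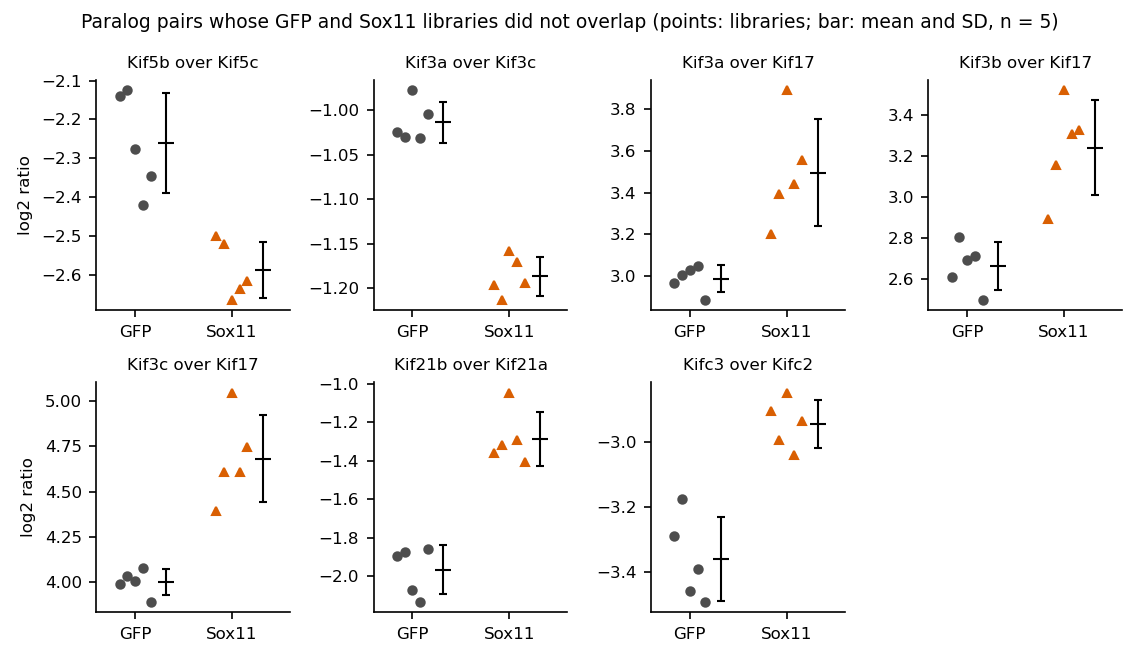
Log2 ratio of normalised counts for the 7 pairs of related motors whose groups did not overlap; points are libraries, bars the mean and SD (n = 5), and each panel has its own vertical axis. The Kif3a over Kif3c panel shows the smallest spread, with SDs of 0.02 in both groups.

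Among the mitotic motors, Kif11 was the member past the threshold. It is a four-headed motor that slides spindle microtubules apart, and it is also present in neurons after their last division. Its counts were 122, 119, 97.9, 125 and 113 in the GFP libraries and 78.4, 89.3, 73.0, 84.0 and 93.1 in the Sox11 libraries. The groups did not overlap, with GFP 4 lowest in its group. Kif11 fell by 0.46 on the log2 scale (SE 0.11, limma adjusted p = 0.0162), to 0.727 of the GFP level. Counting alone would give a coefficient of variation of 9.53% at the depth of the GFP libraries, close to the 9.25% seen in that group. The Sox11 group, with lower counts, showed 9.71%.

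The rest of the spindle and cytokinesis motors did not pass. Kif23, a part of the centralspindlin complex of the dividing cell's midzone, had counts of 30.9, 20.7, 31.9, 15.2 and 19.7 in the GFP libraries and 23.8, 22.8, 25.1, 28.0 and 25.4 in the Sox11 libraries. The Sox11 values lay inside the GFP range, and the 95% interval of the log2 fold change was -0.36 to 0.61. Kif20b, a motor of cytokinesis, had 49.3, 46.1, 58.3, 34.6 and 61.3 against 49.1, 56.6, 47.2, 63.3 and 85.7. Sox11 7 was highest and the other libraries intermixed, with an interval from -0.19 to 0.71.

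Of the 9 others, the chromokinesins Kif4 (0.27) and Kif22 (0.01) hold chromosome arms, Kif18a (0.37) and Kif18b (0.33) regulate the ends of spindle microtubules, and Kif20a (0.20) acts in cytokinesis. Kif2c (-0.09) depolymerises microtubules at centromeres, Kif15 (-0.22) backs up Kif11, Kif14 (-0.23) acts at the midbody and Kifc1 (0.00) focuses spindle poles. All their intervals crossed 0, from -1.03 to 0.56 for Kif14 in the widest case. Those of Kif2c, Kif15, Kif14 and, only just, Kifc1 also took in the -0.46 of Kif11. Only 42.8% of the 31-base words of Kifc1 occur in no other gene, because of the near-identical Kifc5b (mean 75.7), and its count is uncertain for that reason.

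A list of 20 other cell division genes was read beside them. With limma, edgeR and DESeq2 alike 0 of 20 passed. Most of them had a mean under 500, where limma called 10.4% of all genes. Among them, 3 (Cenpe, Birc5 and Anln) had an unadjusted p below 0.05. Cenpe, the kinesin of the kinetochore, whose symbol lies outside the rule, came lowest in p with a log2 difference of -0.27 (SE 0.11, limma adjusted p = 0.105). Its counts were 159, 193, 202, 181 and 189.0 in the GFP libraries and 137, 143, 148, 161 and 181 in the Sox11 libraries. Birc5 stood at -0.45 (SE 0.18, adjusted p = 0.115) and Anln at -0.47 (SE 0.19, adjusted p = 0.123), and the proliferation marker Mki67 at 0.01. The median of the list was -0.08, beside -0.01 over all genes.

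The promoters separated the classes by one word. The cell cycle genes homology region (CHR) is a short element near the start of many genes that are switched on in G2 and mitosis. Its core TTTGAA, searched on both strands of the RefSeq windows of 300 bases, occurred in 10 of 11 mitotic motors, in 1 of 11 transport motors (Kif1a) and in 2 of 8 of the other motors, against 17.9% of all windows. Windows were found for 31 of the 39 members and not for Kif21b, Kifc2, Kif5b, Kifc3, Kif5a, Kif20a, Kif19a and Kif13b. A member with more than 1 window counted if any of them held the word, whereas the share of all windows is per window. The stretches of 30 bases around the word are printed below to show the letters shared by the mitotic motors beside that of Kif1a, each on its gene's strand with the word or its reverse complement TTCAAA in capitals. They come from RefSeq, GRCm38.p6, and mark only the copy nearest the start. In Kif20b another TTTGAA follows directly and is left in lower case.
Kif11 (chr19:37376351-37376380): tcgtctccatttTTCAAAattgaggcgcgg
Kif15 (chr9:122951050-122951079): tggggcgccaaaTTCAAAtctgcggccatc
Kif22 (chr7:127042420-127042449): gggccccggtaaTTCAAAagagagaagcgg
Kif18b (chr11:102925104-102925133): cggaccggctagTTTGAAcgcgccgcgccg
Kif20b (chr19:34922353-34922382): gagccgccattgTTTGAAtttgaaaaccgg
Kif23 (chr9:61946780-61946809): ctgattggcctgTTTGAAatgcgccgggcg
Kif4 (chrX:100626072-100626101): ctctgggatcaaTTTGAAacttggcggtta
Kifc1 (chr17:33890615-33890644): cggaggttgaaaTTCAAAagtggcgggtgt
Kif14 (chr1:136467608-136467637): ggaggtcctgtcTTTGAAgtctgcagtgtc
Kif2c (chr4:117178858-117178887): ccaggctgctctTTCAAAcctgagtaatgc
Kif1a (chr1:93082507-93082536): tttgacagcctcTTTGAAcattgctcctaa
In 8 of the 10 mitotic motors the copy nearest the annotated start lay within 20 bases of it. In Kif14 and Kif2c that copy lay 228 and 103 bases before the start, and both RefSeq starts lie well inside the GENCODE gene. Kif15 and Kif22 hold another copy each, at -234 and -215 relative to the start. In Kif1a the word lay 44 bases before 1 of its 2 annotated starts, and the window at the other start, at the gene's outer end, held no such word. The word was thus shared by Kif11, which fell, and by 9 mitotic motors that did not pass.

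Kif11, as the mitotic motor that passed, is shown over the 250 bases before its start (RefSeq, GRCm38.p6, chr19:37376132-37376381, plus strand), with the CHR word and a CCAAT box on the opposite strand in capitals.
Kif11 promoter: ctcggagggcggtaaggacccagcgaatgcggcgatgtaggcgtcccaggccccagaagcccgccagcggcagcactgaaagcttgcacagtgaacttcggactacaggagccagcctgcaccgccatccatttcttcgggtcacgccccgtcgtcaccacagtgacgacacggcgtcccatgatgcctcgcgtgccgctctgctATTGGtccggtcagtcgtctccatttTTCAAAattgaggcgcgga
The CCAAT box begins 45 bases and the CHR word 19 bases before the start. CCAAT, on either strand, was in 7 of 11 mitotic, 3 of 11 transport and 4 of 8 other motors, beside 37.4% of all windows. Core words of SOX factors (ACAAAG or ACAATG, either strand) were in 4 of 11 mitotic motors, 1 of 11 transport motors (Kif3c) and 2 of 8 others, beside 28.6% of all windows. Neither Kif17 nor Kif11 held a SOX word in its window, which says nothing on Sox11 binding elsewhere.

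Among the motors of microtubule ends, cilia and signalling, Kif6 passed. It is a motor of motile cilia in ependymal cells. Its counts were 87.9, 138, 108, 96.6 and 93.5 in the GFP libraries and 166, 151, 136, 139 and 119 in the Sox11 libraries. GFP 3 lay among the Sox11 libraries, and the other GFP libraries were below them all. It rose by 0.45 on the log2 scale (SE 0.14, limma adjusted p = 0.0488). This call was lost in 8 of the 10 fits that each left out one library, with adjusted p up to 0.112, and held without GFP 3 (0.55, adjusted p = 0.0108) and without Sox11 7.

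Among the other motors of motile cilia, Kif9 and Kif27 were highest in GFP 3. Kif19a was not, at 170 in GFP 3 beside 132 to 219 in the Sox11 libraries. Kif9, a motor of the central apparatus of motile cilia, had 155, 411, 151, 126 and 118 in the GFP libraries and 337, 257, 202, 214 and 224 in the Sox11 libraries. GFP 3 was the highest of all, and the other GFP libraries were below every Sox11 library. Over all libraries its log2 difference was 0.51 (SE 0.31, limma adjusted p = 0.302), and without GFP 3 it was 0.83 (SE 0.16, adjusted p = 0.00460). Kif27, another motor of motile cilia, had 121, 309, 135, 103 and 96.6 against 156, 163, 125, 151 and 162, and stood at 0.12 (adjusted p = 0.824) or, without GFP 3, at 0.41 (adjusted p = 0.0507).

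Markers of other cells stood highest in some of the same libraries. The 9 choroid plexus markers summed to 383796 normalised counts in GFP 3, to between 1732 and 3271 in the other GFP libraries and to between 712 and 2402 in the Sox11 libraries. Outside GFP 3 much of this sum could be Kl alone. In GFP 5 and GFP 6, Kl held 1722 of 1977 and 1448 of 1732, with Ttr at 113 and 80.0. The lower sums are therefore no measure of choroid plexus content. The 10 markers of motile cilia summed to 2858 in GFP 3, 2474 in Sox11 1 and 1803 in Sox11 2, and to between 401 and 904 in the rest. Tmem212 was at 0 in GFP 5 and Sox11 7, and Ccdc153 and Dnah12 were at 0 in Sox11 7. The part of ciliated or choroid plexus cells in the values of Kif6, Kif9 and Kif27 was not tested. With GFP 3 left out, 3 members were higher (Kif21b, Kif6 and Kif9) and 6 lower, while over all genes 1584 were higher and 1701 lower of 16913 tested.

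**Figure D5:**
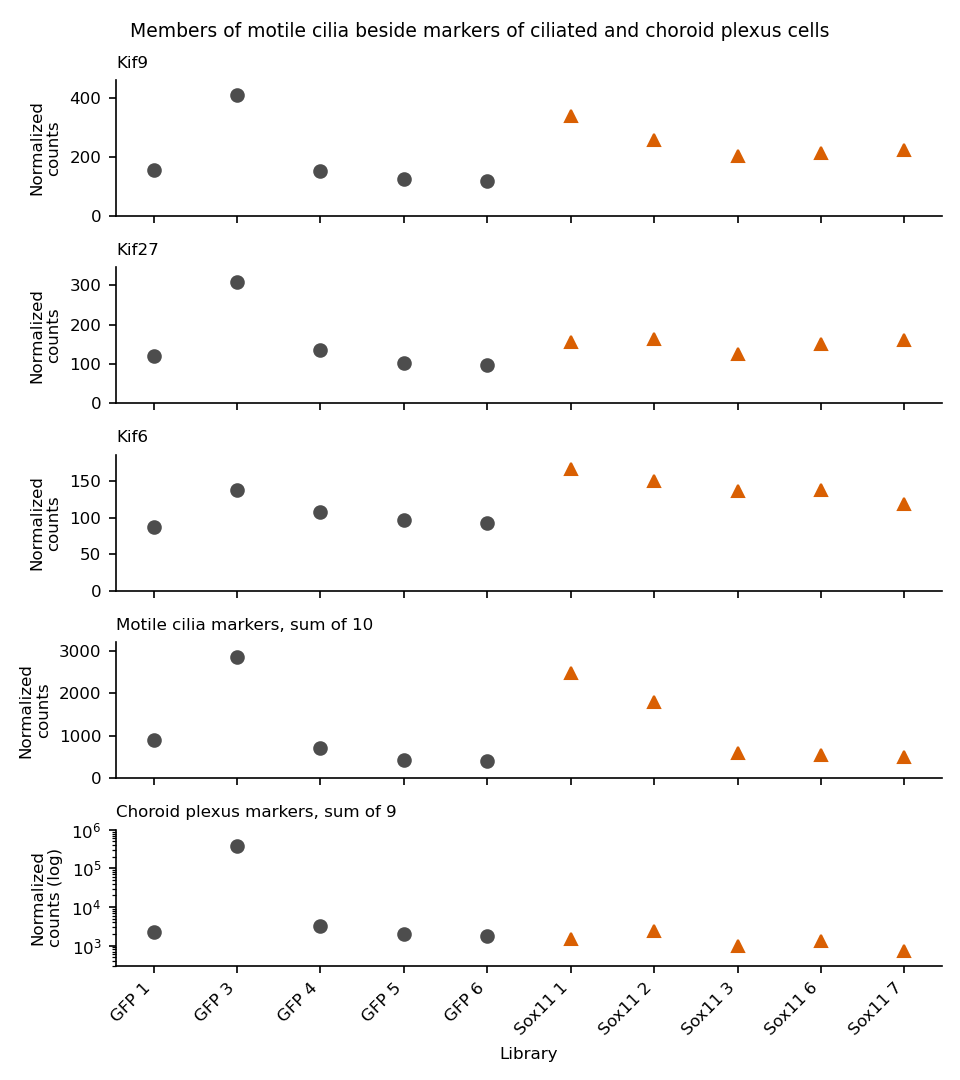
Normalised counts of Kif9, Kif27 and Kif6 in each of the 10 libraries, above the summed counts of 10 motile cilia markers and of 9 choroid plexus markers (log axis). GFP 3 holds the highest Kif9 (411) and Kif27 (309) and the highest marker sums, 2858 and 383796.

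The remaining members of this class did not pass. Kif7, which tunes hedgehog signalling at the tip of the primary cilium, was the nearest, at 0.29 on the log2 scale (SE 0.10, limma adjusted p = 0.0772). It passed with DESeq2 (adjusted p = 0.0495), with limma without its options (0.0440) and without Sox11 6 (0.0287). Of its exonic bases, 20.3% lie under opposite-strand genes. Kif2a, which takes microtubules apart at growing axon branches, was the most abundant of the class per kilobase and stood at -0.01 with a 95% interval from -0.15 to 0.13. Kif19a (0.16), which trims motile cilia, Kif24 (-0.07), a motor of the centriole, and Kif26a (0.15) and Kif26b (0.00), which bind microtubules without walking, had intervals that crossed 0.

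The partners of the motors moved both ways as well. Of 22 cargo adaptors and regulators 3 rose and 4 fell, Kif1bp among them, with a median log2 fold change of 0.02. The share called was 31.8%, beside 19.0% of all genes and 24.8% of those with a mean of at least 500. Map7d2 and Map7, proteins that sit on microtubules and recruit kinesin-1, fell by 0.44 (SE 0.05, limma adjusted p = 0.000342) and 0.38 (SE 0.06, adjusted p = 0.00155) on the log2 scale. Map7d2 counts were 7667, 7323, 8666, 7953 and 8044 in the GFP libraries and 6273, 5853, 5514, 5598 and 5939 in the Sox11 libraries. Its groups were well apart. Fez1, an adaptor of kinesin-1 in axons, rose by 0.32 (SE 0.05, adjusted p = 0.00211), with 13628, 12399, 13942, 14320 and 13672 against 16249, 15808, 16969, 17866 and 17727. The lysosome adaptor Arl8a (0.24) and the scaffold Spag9 (0.26) also rose, and Rhot1, which ties mitochondria to motors, fell by 0.17.

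Cytoplasmic dynein, the motor that runs against most kinesins, had 2 of 25 genes higher and 4 lower, with a median of -0.02. That is 24.0%, near the 24.8% of all genes with a mean of at least 500. Dynlt3, a light chain, fell by 0.38 on the log2 scale (SE 0.05, limma adjusted p = 0.000574). The intermediate chains parted: Dync1i2 rose by 0.28 (SE 0.06, adjusted p = 0.00675), from 7211 ± 338 to 8765 ± 686 counts (SD, n = 5), and Dync1i1 fell by 0.31 (SE 0.08, adjusted p = 0.0166), from 8285 ± 895 to 6677 ± 457. Actr1a of dynactin rose by 0.20, and Dynll2 (-0.21) and the adaptor Bicd1 (-0.24) fell.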

How the data were processed

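RNA-seq libraries (TruSeq Stranded mRNA) were made from the dentate gyrus of 10 mice, 5 per group. Per the submitters' processing notes, the tools were bcl2fastq 1.8.4, cutadapt 1.9.1, STAR 2.5.2a, featureCounts 1.5.1 and DESeq2 1.12.3, with the GRCm38 build. The deposited table holds counts divided by size factors (unit signal, normalised counts) for 48526 identifiers; dividing each column by the value of 1 read gave whole reads for 100.0% of values above 0 (tolerance 0.01). Symbols and exon lengths came from GENCODE (48058 identifiers matched). Columns carry the group but their numbers are not the labels' replicate numbers, so libraries were assigned to groups only, under the column's own number.

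Genes with a mean of at least 10 were tested with limma 3.58.1 (trend and robust) on log2(normalised count + 1), so fold changes of low genes are understated; p-values were Benjamini-Hochberg adjusted over all 17007 genes, with a threshold of 0.05. The limma step was also run on simulated counts with known fold changes. Those counts modelled no library that stands apart like GFP 3, and the outcome is not reported here. Alternatives were other pseudocounts, filters, scalings (TMM, quantile), limma without its options, a column-number covariate, edgeR 4.0.16, DESeq2 1.42.0, other thresholds and leaving out each library. Members, role lists, partner lists and markers were chosen with earlier results of these data known. Values in every library were given for members past the threshold and for 9 motors listed whatever their result; 3 genes of lowest p were named from each partner list, and others past the threshold were added. No 2 libraries of a group were alike within counting noise (lowest chi-square per gene 11.6).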

Additional observations from a re-analysis of the deposited data

Results flagged for a closer look

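In 5 of 78 groups of 5 libraries (39 members in each group) a library lay far from the others. Chance would mark about 1 in 20 groups, so this count was near what chance alone gives. Kif9 was at 411 in GFP 3, against 155 in the next library. Kif27 was at 309 in GFP 3, against 135. Kif16b was at 904 in GFP 3, against 727. In the Sox11 group, Kif13a was at 1915 in Sox11 1, against 1624 in the next, and Kif20a at 63.5 in Sox11 7, against 49.6. GFP 3 is also the library with the highest choroid plexus and motile cilia markers, and their part in these values was not tested.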

How the results depend on the processing

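Kif21b, Kif17, Kif1bp and Kifc2 kept direction and call in all 10 fits that left out a library and in the 10 other fits at the 0.05 threshold. Kif11 lost its call under quantile normalisation (adjusted p = 0.0547), as did Kif5b (0.0602), and Kif6 lost it with no filter (0.0750), with the column-number covariate (0.0522) and with edgeR (0.0541). Against 2 members higher and 5 lower, quantile normalisation gave 4 and 3, with 3 transport motors higher in place of 1 and 0 mitotic motors lower in place of 1. The threshold of 0.01 gave 1 and 3, with 0 mitotic motors lower, and over all genes 816 higher and 721 lower in place of 1642 and 1592. With no filter, and with edgeR, 1 member was higher, and with the covariate 2 transport motors were higher (Kif21b and Kif5c), with 2067 and 1981 genes higher and lower over the table. DESeq2 gave 3 members higher and 6 lower, gaining Kif7 and Kif21a, and limma without its options gave 3 and 5, gaining Kif7. Quantile normalisation gained Kif5a and Kif3c. Leaving out each library gave 1 to 3 members higher and 4 to 6 lower. The log2 fold change of Kif1a turned positive with TMM (0.0015), quantile normalisation (0.023) and the covariate (0.014), and ranged from -0.046 to 0.037 when each library was left out, positive without GFP 5, GFP 6, Sox11 2 or Sox11 7. That of Kif23 ranged from -0.015 (without GFP 5) to 0.24; the cause was not tested. No paired analysis was possible because the columns' numbers are not the labels' replicate numbers (they skip some and go beyond them), so no number ties a column to a labelled mouse. Depth limits the mitotic motors most: in the GFP libraries, counting alone gives a coefficient of variation of 9.53% for Kif11 and 29.1% for Kif18b.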
